A study of Homo sapiens with 10 samples.

Results

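Binding of FOS, JUN, JUNB, NFKB1, and STAT3 was examined around the genes of the epidermal growth factor receptor, EGFR, and 4 of its ligands, EREG, AREG, HBEGF, and TGFA. Peaks were taken by the position of their summit in 4 windows of hg19, the build named in the submitters' processing notes: chr7:55050000-55300000 for EGFR, chr4:75200000-75360000 for EREG and AREG together, chr5:139690000-139750000 for HBEGF, and chr2:70650000-70820000 for TGFA. The windows held 563 of the 879550 peaks in 10 lists. After peaks with overlapping summit windows (150 bp on each side) were joined, they formed 136 of the 248897 sites on chromosomes 1 to 22 and X. Of these, 56 lay in the EGFR window, 31 in the EREG/AREG window, 24 in the HBEGF window, and 25 in the TGFA window. Sites are numbered below by their position along each window.

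The cells were MCF10A-ER-Src, derived from the non-tumorigenic breast epithelial line MCF-10A. They express the viral kinase v-Src joined to the hormone-binding part of the estrogen receptor, and 4-hydroxy-tamoxifen switches the kinase on. Non-transformed cells were grown with ethanol, the solvent, and transformed cells with 1 μM 4-hydroxy-tamoxifen for 12 h. Both states carry the same transgene, and both come from a single engineered line. Each protein had 1 library in each state, so all intervals below cover counting error only and not the spread between cultures. The library names in the file headers carry 36 h with ethanol and 12 h with tamoxifen, so time in culture and state cannot be told apart. The STAT3 antibody named in the labels is sold as one against phosphorylated STAT3.

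EGFR is a receptor tyrosine kinase of epithelial cells that pairs on binding a ligand and signals through the MAP kinase, PI3 kinase, and STAT pathways. Its ligands epiregulin (EREG), amphiregulin (AREG), heparin-binding EGF-like growth factor (HBEGF), and transforming growth factor alpha (TGFA) are made as membrane-anchored precursors that surface proteases release, and they can act on the cell that makes them or on its neighbours. FOS, JUN, and JUNB are subunits of AP-1, the dimeric factor that MAP kinase signalling activates. NFKB1 is the p50 subunit of NF-κB, and STAT3 is activated by Src and by cytokines such as interleukin 6.

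Depth bears on every comparison between the states. The libraries kept from 4837474 to 22082403 reads after the authors' filter. Relative to the non-transformed library, the transformed FOS library held 1.19 times the reads, that of JUN 1.16 times, that of JUNB 1.72 times, that of NFKB1 2 times, and that of STAT3 0.821 times. Signal is therefore given as normalized pileup, the count of extended reads that cover the summit per 1000000 filtered reads, and values given below for a protein at a site are in that unit. Fragment length as estimated by MACS was 150 bp in the non-transformed and 119 bp in the transformed STAT3 library, whereas the other libraries lay between 114 and 135 bp.

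The sequences that AP-1 and the related factors read are shown for the start sites of these genes, because they are the letters against which binding near a gene is usually set. RefSeq (GRCh38.p14) lists 7 start sites for the 5 genes. The 250 bases before each were searched on both strands for the AP-1 motif TGANTCA, the cyclic AMP response element TGACGTCA, the STAT motif TTCNNNGAA, and the NF-κB motif (GGGA and TTTCC with any base between them). No match to the first can be a match to the second. Matches were found before 2 start sites, an alternative start of EGFR and the start of AREG, and none of the letters searched occurred before the other 5. In the sequences below the matches are in capitals.

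EGFR alternative start, chr7:55109589-55109838, plus strand, GRCh38.p14: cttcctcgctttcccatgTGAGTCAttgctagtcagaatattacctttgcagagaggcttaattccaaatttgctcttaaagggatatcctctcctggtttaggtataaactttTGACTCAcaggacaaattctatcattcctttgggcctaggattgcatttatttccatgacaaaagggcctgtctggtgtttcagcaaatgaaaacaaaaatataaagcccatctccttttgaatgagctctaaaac
AREG start, chr4:74444886-74445135, plus strand, GRCh38.p14: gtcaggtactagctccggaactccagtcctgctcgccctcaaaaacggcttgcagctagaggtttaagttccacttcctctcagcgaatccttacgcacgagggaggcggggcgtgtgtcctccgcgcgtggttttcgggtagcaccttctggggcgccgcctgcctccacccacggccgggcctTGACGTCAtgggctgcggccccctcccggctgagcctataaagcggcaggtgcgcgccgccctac

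The EGFR matches to the AP-1 motif begin at -232 and -136 bases from the start site, and the AREG match to the cyclic AMP response element begins at -65. Among 35116 RefSeq promoters, 6.57% hold the AP-1 motif in the same length, 1.65% the cyclic AMP response element, 6.57% the STAT motif, and 0.527% the NF-κB motif. The peaks are on another build than these sequences, so whether a peak lies on either of them was not analysed here, and the distance of a peak from a start site is not given. A match describes the letters and is not evidence of a bound site.

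All 4 windows were dense in sites. The EGFR window held 22.4 sites per 100 kb, the EREG/AREG window 19.4, the HBEGF window 40, and the TGFA window 14.7, against 9.22 over the effective genome of 2700000000 bp. Transformed cells had more peaks than non-transformed cells in each window, with 164 and 101 for EGFR, 66 and 45 for EREG and AREG, 68 and 26 for HBEGF, and 66 and 27 for TGFA. Over the whole series the numbers were 547041 and 332509. The number of peaks in a list moves with its depth as well as with binding.

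Sites at which all 5 proteins had a peak in transformed cells made up 39 of the 136 (28.7%, exact 95% interval 21.3 to 37.1%), against 14.8% of all sites. They numbered 20 of 56 in the EGFR window, 6 of 31 in the EREG/AREG window, 7 of 24 in the HBEGF window, and 6 of 25 in the TGFA window. In non-transformed cells all 5 proteins had a peak at 8 sites (5.88%, 2.57 to 11.3%), against 2.41% of all sites. These 8 were also in all 10 lists, a class that holds 2.23% of all sites. At the other end, 46 sites (33.8%, 25.9 to 42.4%) were in 1 list only, against 38.7% of all sites. The lower limits of the first 2 shares lie above the share of all sites, and the interval of the last holds it.

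**Figure D1:**
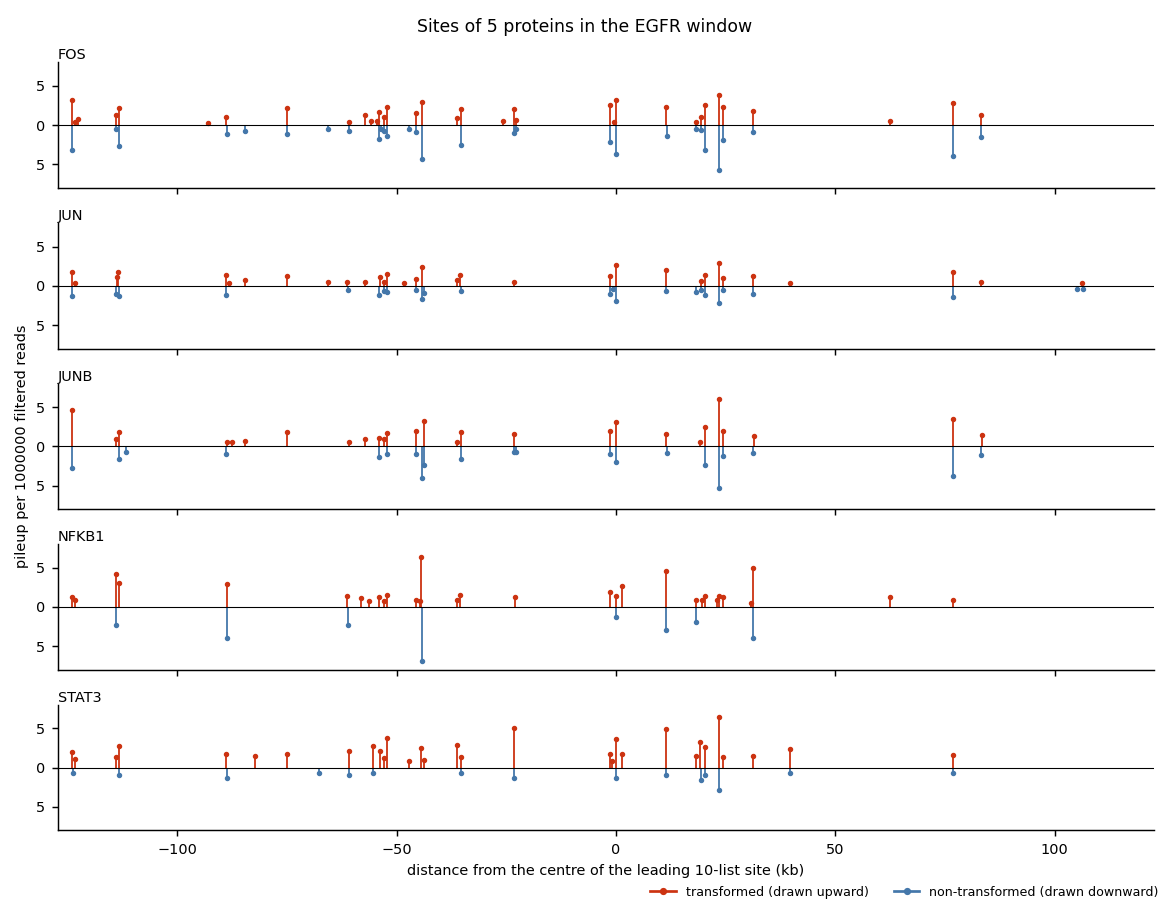
Pileup per 1000000 filtered reads (vertical axes) of each protein at the 56 sites of the EGFR window, by the distance of the summit in kb from the centre of site 40, the leading site with a peak in all 10 lists. Transformed cells are drawn upward in red and non-transformed cells downward in blue; FOS, JUN, JUNB, and STAT3 are highest at site 47, to the right of the centre, and NFKB1 at site 30, to its left.

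The EGFR window held 265 peaks. Compared with the effective genome, its peaks per 100 kb were 2.43 times (FOS, transformed) to 7.34 times (NFKB1, non-transformed) as dense. The widest distance between neighbouring summits was 22.9 kb, from 55216888 to 55239820. All 3 AP-1 proteins had a peak at 16 sites in non-transformed cells (28.6%, 17.3 to 42.2%), against 16.1% of all sites, and at 24 in transformed cells (42.9%, 29.7 to 56.8%), against 30.2%. STAT3 or NFKB1 had a peak without AP-1 at 9 sites in transformed cells, and over the 4 windows this class held 14 sites (10.3%, 5.74 to 16.7%), against 7.27% of all sites.

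Site 47 (chr7:55200536-55200927) had the highest pileup of the EGFR window for FOS, JUN, JUNB, and STAT3 in both states. FOS measured 5.75 in non-transformed and 3.85 in transformed cells, JUN 2.14 and 2.87, and JUNB 5.34 and 6.09. STAT3 measured 2.84 and 6.47, and NFKB1 had no listed peak in non-transformed cells and 1.45 in transformed cells. The ratio of transformed to non-transformed signal was 0.670 for FOS (exact 95% interval 0.498 to 0.899) and 2.28 for STAT3 (1.45 to 3.65). No other site of the 4 windows had 1 protein with its interval above 1 and another with its interval below 1. The ratios of JUN (1.34, 0.854 to 2.13) and JUNB (1.14, 0.801 to 1.65) had intervals that held 1, so a difference between the 2 libraries was not resolved from counting error.

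The 3 sites of this window with a peak in all 10 lists were sites 8, 40, and 42. At site 42 (chr7:55188483-55188963), FOS measured 1.40 and 2.31 in non-transformed and transformed cells, JUN 0.694 and 2.005, and JUNB 0.872 and 1.52. NFKB1 measured 2.89 and 4.55 there, and STAT3 0.915 and 4.91. All 5 proteins were thus higher in the transformed library, and the interval of the ratio lay above 1 for STAT3 (5.36, 2.66 to 11.9), JUN (2.89, 1.44 to 6.28), and FOS (1.65, 1.01 to 2.76). At site 40 (chr7:55177046-55177453), FOS measured 3.65 and 3.17, JUN 1.96 and 2.66, JUNB 1.96 and 3.05, NFKB1 1.24 and 1.34, and STAT3 1.37 and 3.57. STAT3 was the only protein at site 40 whose ratio had an interval above 1 (2.60, 1.37 to 5.17).

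At site 8 (chr7:55088262-55088720), no difference between the states was resolved. FOS measured 1.13 and 1.04 in non-transformed and transformed cells, JUN 1.20 and 1.35, JUNB 0.981 and 0.571, NFKB1 3.93 and 2.89, and STAT3 1.28 and 1.67. The interval of each of the 5 ratios held 1, and that of STAT3 (1.31, 0.588 to 2.92) also held the ratio of 2.60 at site 40. NFKB1 had the highest normalized pileup of the 5 proteins in both states. Libraries of different proteins differ in depth and antibody, so pileup does not rank the proteins at a site by binding.

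NFKB1 was highest at site 30 (chr7:55132728-55133161), with 6.82 in non-transformed cells (exact Poisson 95% interval 4.70 to 9.58) and 6.31 in transformed cells (4.82 to 8.10). FOS measured 4.30 and 2.90 there, a ratio of 0.674 (0.478 to 0.949), and JUN 1.70 and 2.44. JUNB had 4.03 in non-transformed cells and no listed peak in transformed cells, whereas the adjacent site 31 had a JUNB peak in both states (2.40 and 3.17). STAT3 had a listed peak in transformed cells only, at 2.45. In its lists NFKB1 ranked 521.5 of 13252 at this site in non-transformed and 559.5 of 73822 in transformed cells, the upper 3.94% and 0.758%.

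EGFR also had 2 of the 4 sites at which 4 or more proteins had a peak in transformed cells and none did in non-transformed cells (2.94% of the 136, against 1.49% of all sites). At site 32 (chr7:55140826-55141278), STAT3 measured 2.90 in transformed cells, FOS 0.951, NFKB1 0.930, JUN 0.759, and JUNB 0.508. At site 2 (chr7:55053694-55054311), STAT3 measured 1.12, NFKB1 0.827, FOS 0.408, and JUN 0.325. Apart from STAT3 at site 32, these peaks had 6 to 21 reads over the summit. At site 32, FOS stood in the upper 38.5% of its list, JUN in the upper 45.5%, and NFKB1 in the upper 49.3%. JUNB at site 32 was in the lower part of its list, and at site 2 all 4 proteins were in the lower part of theirs.

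**Figure D2:**
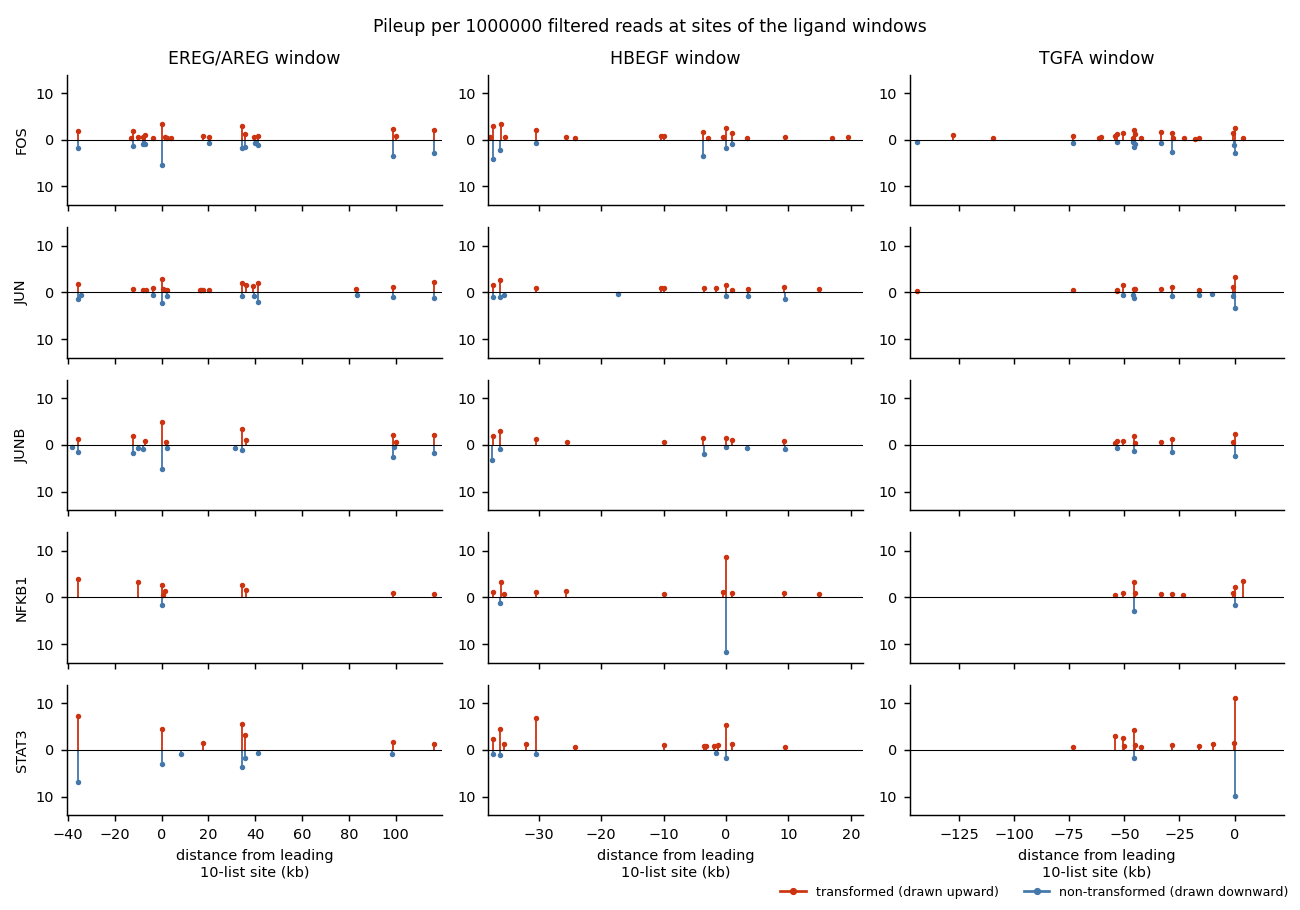
Pileup per 1000000 filtered reads of each protein (rows) at the sites of the EREG/AREG, HBEGF, and TGFA windows (columns), by distance in kb from the leading site with a peak in all 10 lists. Transformed cells are drawn upward in red and non-transformed cells downward in blue; the tallest lines are NFKB1 in the HBEGF window and STAT3 in the TGFA window, and each of the pair is tall in both states.

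The EREG/AREG window covers 2 ligand genes and held 111 peaks. EREG and AREG are neighbouring members of the EGF family, and epiregulin also binds ERBB4. Peaks were 1.27 times (NFKB1, non-transformed, from 1 peak) to 2.76 times (STAT3, non-transformed, from 7 peaks) as dense as over the effective genome. The widest distance between neighbouring summits, 41.8 kb from 75281827 to 75323578, was the largest of the 4 windows. The lists were made from uniquely aligned reads, and RefSeq keeps AREGB, the name of a near-identical copy of AREG, as a synonym of AREG. Sequence with such a copy in the build can hold few or no unique reads, so a lack of peaks over AREG would not show a lack of binding, and whether the gene lies in that stretch was not determined here.

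Site 10 (chr4:75240231-75240635) was the site of the EREG/AREG window in all 10 lists. FOS measured 5.37 in non-transformed and 3.35 in transformed cells, JUN 2.33 and 2.87, JUNB 5.23 and 4.95, NFKB1 1.65 and 2.58, and STAT3 3.11 and 4.57. FOS was lower in the transformed library (ratio 0.624, 0.456 to 0.851), as it was at EGFR site 47, and the intervals of the other 4 ratios held 1. The only NFKB1 peak of this window in non-transformed cells was here.

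Site 2 (chr4:75204543-75204886) had the highest STAT3 pileup of the EREG/AREG window in both states. STAT3 measured 6.86 (5.40 to 8.60) in non-transformed and 7.36 (5.69 to 9.36) in transformed cells, a ratio of 1.07 (0.759 to 1.51). It ranked 297.5 of 42810 and 1827.5 of 80265 in its lists. FOS measured 1.66 and 1.99 at this site, JUN 1.51 and 1.73, and JUNB 1.42 and 1.21. NFKB1 had a listed peak in transformed cells only, at 3.93 (2.78 to 5.39).

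At site 21 (chr4:75274389-75274757), in contrast, all 3 AP-1 proteins were higher in the transformed library. FOS measured 1.83 and 2.90 in non-transformed and transformed cells (ratio 1.59, 1.03 to 2.48), JUN 0.883 and 1.95 (2.21, 1.16 to 4.43), and JUNB 1.20 and 3.36 (2.81, 1.45 to 5.96). STAT3 measured 3.66 and 5.46, with a ratio whose interval held 1 (1.49, 0.963 to 2.33), and NFKB1 had a peak in transformed cells only, at 2.69. No site of the EREG/AREG window had 4 or more proteins in transformed cells and none in non-transformed cells.

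The HBEGF window was the shortest, at 60 kb, and the densest. HBEGF binds EGFR and ERBB4, and its membrane-anchored precursor is the receptor for diphtheria toxin. Of its 24 sites, 13 had peaks in transformed cells only (54.2%, 32.8 to 74.4%), against 34.6% of all sites; over the 4 windows the number was 54 (39.7%, 31.4 to 48.5%). In transformed cells, STAT3 peaks were 8.41 times as dense as over the effective genome and NFKB1 peaks 7.31 times.

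Site 18 (chr5:139727836-139728272) carried the highest NFKB1 signal of the 4 windows. NFKB1 measured 11.8 (8.92 to 15.3) in non-transformed and 8.58 (6.83 to 10.6) in transformed cells, ranks of 116.5 of 13252 and 123.5 of 73822. The ratio was 0.728, with an interval (0.513 to 1.04) that held 1. The other proteins were higher in the transformed library, with FOS at 1.83 and 2.54, JUN at 0.757 and 1.63, JUNB at 0.545 and 1.46, and STAT3 at 1.65 and 5.35. Of these, the interval lay above 1 for STAT3 (3.25, 1.86 to 5.94) and JUN (2.15, 1.07 to 4.61).

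Site 3 (chr5:139691695-139692145) was the other HBEGF site in all 10 lists, and the only site of the 4 windows at which the interval of the ratio lay above 1 for all 5 proteins. FOS measured 2.20 in non-transformed and 3.44 in transformed cells (ratio 1.56, 1.06 to 2.34), JUN 0.946 and 2.66 (2.81, 1.55 to 5.39), and JUNB 0.981 and 2.98 (3.04, 1.47 to 7.06). NFKB1 measured 1.24 and 3.31 (2.67, 1.10 to 7.80), and STAT3 1.01 and 4.57 (4.54, 2.29 to 9.80). The 10 summits lay within 150 bp.

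At site 2 (chr5:139690504-139690938), the neighbour of site 3, the AP-1 proteins FOS and JUNB were instead lower in the transformed library. FOS measured 4.08 and 2.94 in non-transformed and transformed cells, and JUNB 3.16 and 1.84. Their ratios, 0.721 (0.510 to 1.02) and 0.583 (0.336 to 1.01), had intervals that held 1. JUN measured 1.07 and 1.52, NFKB1 had a peak in transformed cells only at 1.24, and STAT3 measured 0.915 and 2.45 (2.68, 1.22 to 6.34).

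The largest ratio of STAT3 in the 4 windows was at HBEGF site 6 (chr5:139697512-139697836), with 0.915 in non-transformed and 6.91 in transformed cells (ratio 7.56, 3.85 to 16.5). FOS measured 0.752 and 2.17 there (2.89, 1.57 to 5.68). JUN, JUNB, and NFKB1 had peaks in transformed cells only, at 1.03, 1.27, and 1.14. At site 11 (chr5:139717966-139718532), all 5 proteins had a peak in transformed cells and none in non-transformed cells, with FOS at 0.815, JUN at 1.03, JUNB at 0.571, NFKB1 at 0.827, and STAT3 at 1.00. The highest JUN pileup of the window in non-transformed cells was at site 21 (chr5:139737252-139737618), with 1.32 and 1.19 in the 2 states, where JUNB measured 0.872 and 0.889, and FOS (0.543), NFKB1 (1.03), and STAT3 (0.669) had peaks in transformed cells only.

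The TGFA window was the sparsest, with 93 peaks over 170 kb, and its widest distance between neighbouring summits was 36.5 kb, from 70687598 to 70724092. TGFA encodes a ligand that binds EGFR alone among the ERBB receptors. The 4 JUNB and 2 STAT3 peaks of non-transformed cells were less dense here than over the effective genome (0.844 and 0.742 times). In transformed cells the 9 JUNB and 12 STAT3 peaks were 1.42 and 2.37 times as dense. Ratios from so few peaks can move with a single peak, and no interval was computed for them. No site of this window had peaks in non-transformed cells only (0 of 25, 0 to 13.7%), against 15.0% of all sites and 11 of the 136 (8.09%, 4.11 to 14.01%).

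Site 24 (chr2:70797227-70797560) had the highest STAT3 signal of the 4 windows. STAT3 measured 9.79 (8.02 to 11.8) in non-transformed and 11.04 (8.97 to 13.4) in transformed cells, ranks of 58.5 of 42810 and 202 of 80265. The ratio was 1.13 (0.849 to 1.496). FOS measured 2.90 and 2.49 at this site, JUN 3.28 and 3.36, JUNB 2.29 and 2.29, and NFKB1 1.65 and 2.17, and the interval of each of these ratios also held 1. JUN ranked 219 of 81444 in non-transformed and 905.5 of 127335 in transformed cells, its highest ranks in the 4 windows, and the 10 summits lay within 33 bp.

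Site 13 (chr2:70751427-70751776) was the other TGFA site in all 10 lists. FOS measured 1.61 and 2.08 in non-transformed and transformed cells, JUN 1.14 and 0.813, JUNB 1.31 and 1.90, NFKB1 2.89 and 3.41, and STAT3 1.83 and 4.24. STAT3 was the protein whose interval lay above 1 (2.32, 1.31 to 4.20). At site 17 (chr2:70768431-70769168), FOS was lower in the transformed library, at 2.69 and 1.40 (0.523, 0.323 to 0.834), whereas JUN measured 0.883 and 1.14, JUNB 1.53 and 1.27, and NFKB1 (0.724) and STAT3 (1.00) had peaks in transformed cells only.

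In transformed cells the highest NFKB1 pileup of the TGFA window was at site 25 (chr2:70800896-70801243), at 3.51 (2.43 to 4.91), where the only other peak was FOS of transformed cells at 0.362. Site 7 (chr2:70743108-70743453) had peaks of 4 proteins in transformed cells and none in non-transformed cells. STAT3 measured 3.01 there, FOS 0.906, NFKB1 0.620, and JUNB 0.444. As at EGFR site 32, STAT3 had the highest normalized pileup of the proteins with a peak.

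**Figure D3:**
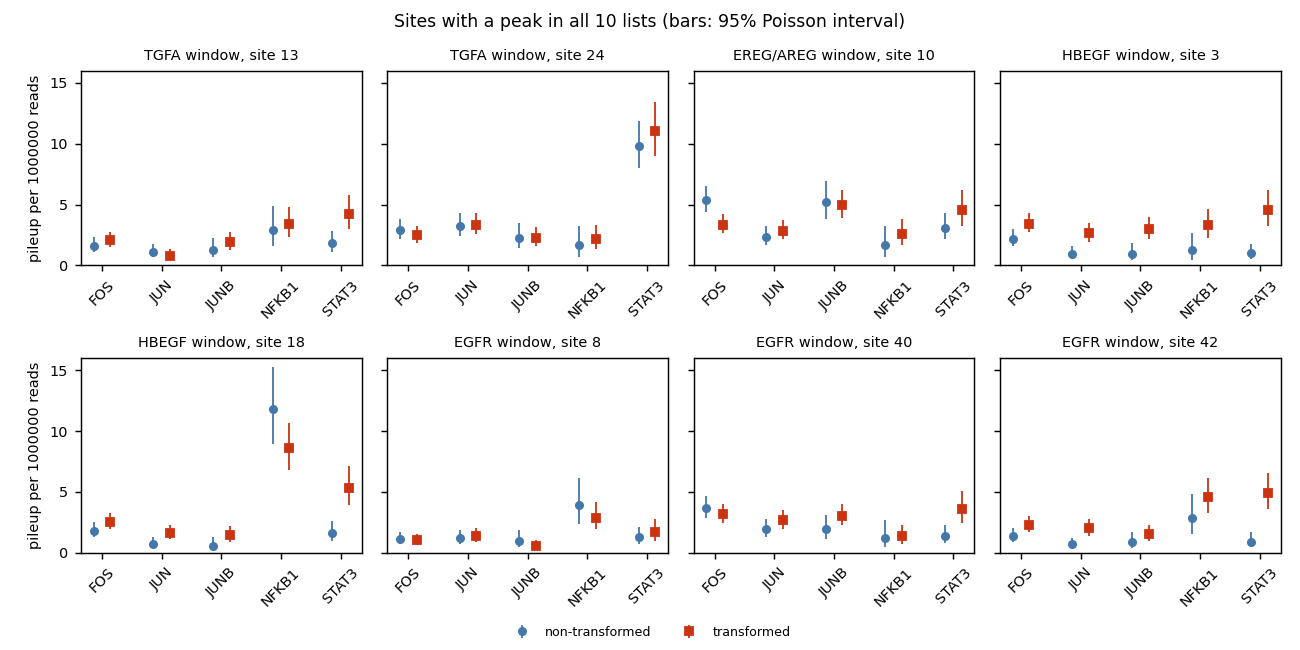
Pileup per 1000000 filtered reads (vertical axis, same scale in all panels) of the 5 proteins at the 8 sites with a peak in all 10 lists, non-transformed cells as blue circles and transformed cells as red squares, with exact 95% Poisson intervals as bars. STAT3 at TGFA site 24 and NFKB1 at HBEGF site 18 stand highest in both states, and at HBEGF site 3 all 5 proteins are higher in transformed cells.

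The question of which sites appear with transformation can be asked of each protein over the 4 windows. FOS had a peak at 94 sites in transformed cells, of which 42 had none in non-transformed cells (44.7%, 34.4 to 55.3%), against 38.7% of all FOS sites. For JUN the number was 36 of 76 (47.4%, 35.8 to 59.2%), against 48.9%, and for JUNB 21 of 55 (38.2%, 25.4 to 52.3%), against 44.3%. For NFKB1 it was 48 of 61 (78.7%, 66.3 to 88.1%), against 83.5%, and for STAT3 38 of 64 (59.4%, 46.4 to 71.5%), against 61.1%. Each interval held the share of all sites.

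Sites with a peak in non-transformed cells only can be set against all sites in the same way. They numbered 5 of 57 for FOS (16.3% of all FOS sites of non-transformed cells), 11 of 51 for JUN (20.4%), 9 of 43 for JUNB (25.1%), 0 of 13 for NFKB1 (9.97%), and 3 of 29 for STAT3 (28.1%). The exact interval was 2.91 to 19.3% for FOS and 11.3 to 35.3% for JUN. It was 10.04 to 36.04% for JUNB, 0 to 24.7% for NFKB1, and 2.19 to 27.4% for STAT3. The upper limit for STAT3 lies just under the share of all sites, and the other intervals hold it.

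**Figure D4:**
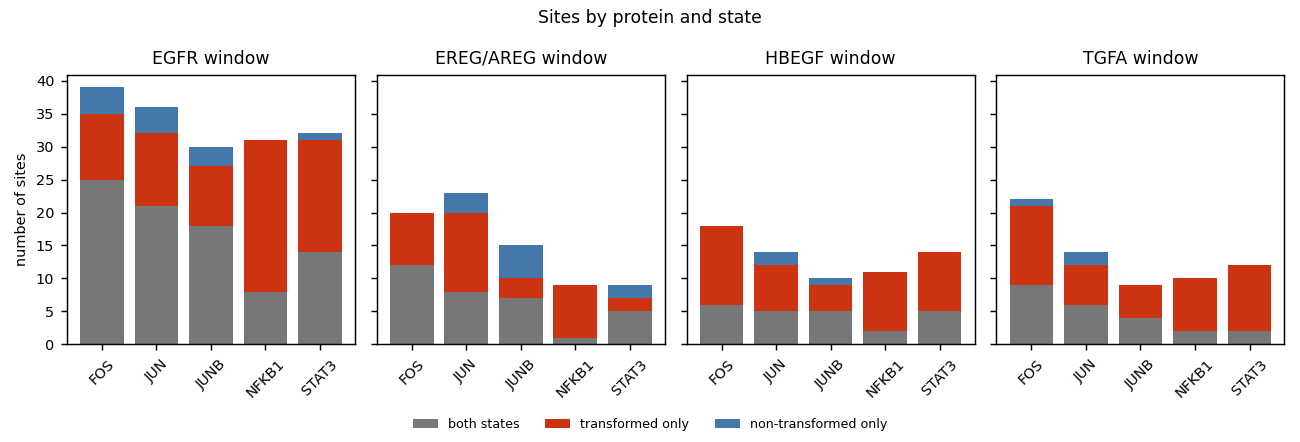
Number of sites (vertical axis, same scale in all panels) with a peak in both states (gray), in transformed cells only (red), and in non-transformed cells only (blue), for each protein in each window. Red makes up most of the NFKB1 bar in every window, and blue is absent from all 4 NFKB1 bars.

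Sites found in transformed cells only had lower pileup there than sites with a peak in both states. For FOS the median normalized pileup was 0.521 and 1.86, respectively (0.453 and 1.13 over all sites), for JUN 0.596 and 1.35 (0.542 and 1.03), and for JUNB 0.698 and 1.87 (0.635 and 1.46). For NFKB1 the medians were 1.03 and 3.31 (0.827 and 2.07 over all sites), and for STAT3 1.23 and 3.23 (1.00 and 2.12). The medians of the whole transformed lists were 0.930 for NFKB1 and 1.23 for STAT3. For NFKB1 and STAT3, the medians of the sites found in transformed cells only thus lay at or above those of the lists, with single sites on both sides. For the AP-1 proteins they lay below the list medians, which were 0.725 for FOS, 0.704 for JUN, and 0.952 for JUNB.

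None of the AP-1 sites found in transformed cells only reached a normalized pileup of 2, against 0.614% of all such FOS sites, 0.33% of all such JUN sites, and 1.85% of all such JUNB sites. For NFKB1, 6 of 48 did (5.77% over all sites), and for STAT3 6 of 38 (15.3%). The NFKB1 sites included 3 of the EREG/AREG window, sites 2 and 21 and, named here after its values were seen, site 6 (chr4:75230233-75230640, 3.20). The STAT3 sites were 4 of the EGFR window, sites 30 and 32 among them, and 2 of the TGFA window, with site 7. The non-transformed NFKB1 list holds no peak under 0.827, and 37 of the 48 NFKB1 sites of transformed cells only lay at or above that level, against 59.8% over all sites. With a normalized pileup of at least 2 required in both states, 9 of 16 NFKB1 sites (56.2%, against 58.7% over all sites) and 22 of 27 STAT3 sites (81.5%, against 77.1%) of transformed cells had no such peak in non-transformed cells.

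An AP-1 peak in non-transformed cells was present at 61.55% of all sites and at 77 of the 136 (56.6%). It was also present at many of the sites where STAT3 or NFKB1 had a peak in transformed cells only. Of the 38 such STAT3 sites, 24 had a FOS, JUN, or JUNB peak in non-transformed cells (63.2%, 46.0 to 78.2%), against 62.7% over all sites. Of the 48 NFKB1 sites, 30 did (62.5%, 47.3 to 76.1%), against 73.6%. By window, the STAT3 numbers were 12 of 17 for EGFR, 1 of 2 for EREG and AREG, 4 of 9 for HBEGF, and 7 of 10 for TGFA. Both intervals held the share of all sites.

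Where a protein had a peak in both states, the size of its signal could be compared. For STAT3 the median ratio over 26 sites was 2.32 (order-statistic 95% interval 1.95 to 2.77), and all 26 ratios lay above 1, from 1.07 to 7.56, as did 83.2% over all STAT3 sites. Of these, 18 were at least 2, against 39.1% of all STAT3 sites, and none was 0.5 or lower (0.978% of all sites). The median over all STAT3 sites was 1.71. Relative to the median of each list at the shared sites, the median ratio in the 4 windows was 1.20. That scale divides by the ratio of the list medians, which is not the median ratio of all sites, 1.71. Depth and fragment length of the STAT3 libraries moved with this ratio, and their part in it was not tested.

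The STAT3 ratio varied among the windows. It was at least 2 at 13 of 14 EGFR sites (median 2.57) and at 4 of 5 HBEGF sites (median 3.25). It was under 2 at all 5 EREG/AREG sites (median 1.49) and at 1 of 2 TGFA sites. The sites with the highest STAT3 signal in non-transformed cells, TGFA site 24 and EREG/AREG site 2, had the smallest of the 26 ratios, 1.13 and 1.07. A ratio of counts is bound to its own denominator, and a difference among windows was not tested.

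The median ratios of the AP-1 proteins and NFKB1 were closer to 1. FOS had a median of 1.09 (0.888 to 1.39) over 52 sites, with 28 above 1 (45.4% of all FOS sites), 7 at least 2 (8.54%), and 1 at 0.5 or lower (5.99%). For JUN it was 1.26 (1.13 to 1.42) over 40 sites, with 32 above 1 (74.5%), 7 at least 2 (14.8%), and 0 at 0.5 or lower (0.807%). Over all sites the median was 0.949 for FOS and 1.29 for JUN, and each lay within the interval of its protein.

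For JUNB the median was 1.19 (0.999 to 1.55) over 34 sites, with 23 above 1 (46.3%), 4 at least 2 (7.74%), and 0 at 0.5 or lower (7.02%). The lower limit of its interval lies above the median of all JUNB sites, 0.964. For NFKB1 the median was 1.18 (0.728 to 1.57) over 13 sites, with 8 above 1 (54.6%), 1 at least 2 (9.26%), and 0 under 0.5 (5.92%), and the median of all sites was 1.03.

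Counting error covered most of the single differences in AP-1 and NFKB1. The interval of the ratio held 1 at 35 of 52 FOS sites and 34 of 40 JUN sites. It did so at 31 of 34 JUNB sites and 12 of 13 NFKB1 sites. For STAT3 it held 1 at 9 of 26 and lay above 1 at 17, against 39.0% of all STAT3 sites. It lay above 1 at 11 FOS sites (9.6% of all FOS sites), 6 JUN sites (14.9%), 3 JUNB sites (7.05%), and 1 NFKB1 site (6.41%). FOS was the only protein with intervals below 1 in the 4 windows, at 6 sites (12.6% of all FOS sites). The other proteins had 0 such sites, against 0.396% of all JUN sites, 6.66% of all JUNB sites, 4.67% of all NFKB1 sites, and 0.572% of all STAT3 sites. The 6 FOS sites had 50 to 107 reads over the summit in non-transformed cells, and the 11 FOS sites with intervals above 1 had 8 to 41. A ratio of counts is bound to its own denominator, and its part in these FOS differences was not tested. With the deposited fold enrichment in place of normalized pileup, the median NFKB1 ratio was 1.97. The pileup behind that value was not scaled by depth, and the part of the 2-fold depth of the transformed library in it was not tested.

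**Figure D5:**
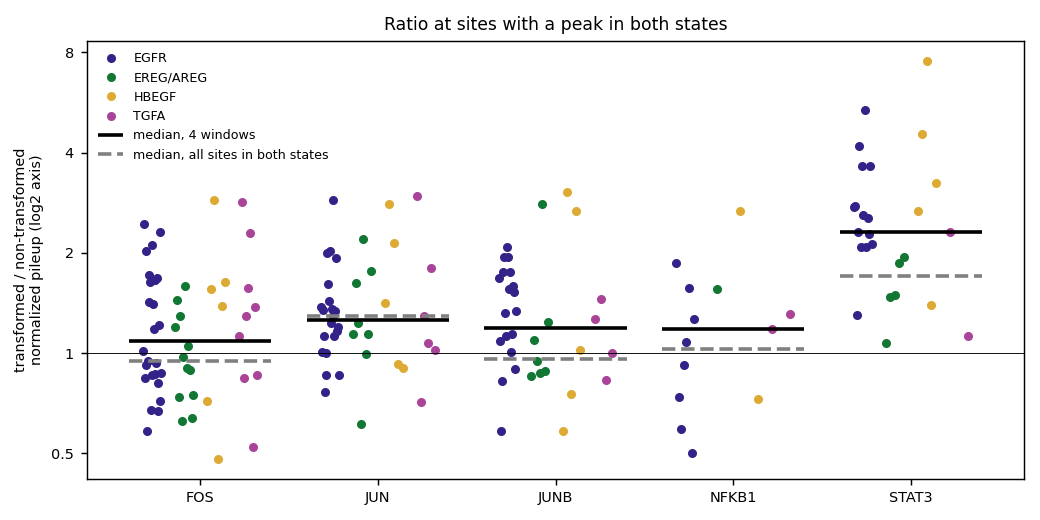
Ratio of transformed to non-transformed normalized pileup (log2 axis) at sites with a peak in both states, 1 point per site, colored by window, with the median over the 4 windows (solid line) and over all sites of the protein (dashed line). All 26 STAT3 points lie above 1, and the points of the other proteins lie on both sides of it.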

How the data were processed

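The authors deposited 1 peak list per protein and state, called per sample without a control. Per the file headers, the authors ran MACS 2.0.10.20131216 on uniquely aligned reads of 36 bp. The effective genome was set to 2700000000 bp and the local background to 1000000 bp, duplicate reads were reduced to 1 per position, and peaks were kept at a q-value of 0.05. The submitters' processing notes name Bowtie and hg19. The deposited pileup is a signal not scaled by depth. The deposited fold enrichment is a ratio over the local background. The deposited significance values are −log10 of the p-value and q-value.

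Samples were grouped by the protein and state in their labels. The windows and motifs were chosen with earlier results of these data known. Summits with 150 bp on each side were joined into sites when they overlapped by at least 1 bp, and where a site held more than 1 peak of a list, the higher pileup was used. Pileup was divided by the filtered reads of its library. Shares have exact Clopper-Pearson 95% intervals, ratios exact conditional binomial intervals, and medians order-statistic intervals; with 1 sample per protein and state there was no test. A ratio of at least 2 in either direction was called. Sites named in the text were, in each window, the 3 in the most lists, the highest for each protein and state, and those with 4 or more proteins in transformed cells and none in non-transformed cells. The joining of sites was checked on simulated data (20000 sites, 100% of calls recovered). The simulated sites lay far apart, so the check covers the code only and not neighbouring sites that lie close together. Alternatives were windows of 50 bp on each side, whole deposited peaks, a −log10 q of at least 9.41 (the median over all lists), at least 2 reads per 1000000, windows with edges widened by 50 kb or shortened by 20 kb, fold enrichment, and pileup relative to the list's median at shared sites. Computations used Python 3.11.15, numpy 2.4.6, pandas 2.3.3, and scipy 1.17.1. Only GRCh38 sequence was at hand, so peaks were not placed on genes and no coordinates were converted. The paper read beside these data describes other libraries and served for style alone.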

Additional observations from a re-analysis of the deposited data

How the results depend on the processing

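Of 74 alternative values for 22 results, 49 stayed close to the reported value and 25 moved. The only median ratio that reached 2, that of STAT3, did not turn to the other side of 1. The check for such a turn left out the medians under 2. Windows of 50 bp on each side and whole deposited peaks moved none of their 26. Peak numbers per locus were counted by summit, so with windows of 50 bp they could not change, and they count among the 49. With the stricter q-value, peaks numbered 55 in the EGFR window in non-transformed cells, 24 and 39 in the EREG/AREG window in non-transformed and transformed cells, 12 and 34 in the HBEGF window, and 15 and 32 in the TGFA window. Sites with all 5 proteins in transformed cells then numbered 13 of 35 for EGFR. For HBEGF they numbered 3 of 13 and for TGFA 2 of 13, against 11.8% of all sites. The share of sites in transformed cells only was 30.4% for FOS (35.1% over all sites) and 72.7% for STAT3 (67.5%). With at least 2 reads per 1000000, that share was 56.2% for NFKB1 and 81.5% for STAT3. With edges widened by 50 kb, peaks in non-transformed and transformed cells numbered 83 and 140 for EREG/AREG, 62 and 121 for HBEGF, and 50 and 117 for TGFA; shortened by 20 kb, the HBEGF window held 10 and 32. With fold enrichment, the median NFKB1 ratio was 1.97. Relative to the list's median at shared sites, the median ratio was 0.928 for JUN, on the other side of 1 from the reported 1.26, and 1.20 for STAT3. A stricter cutoff and other edges change the number of peaks by construction, and the cause of the other shifts was not tested. No paired analysis was possible because each protein and state has 1 sample and the results come from no test, and for the same reason no sample could be left out. A site without a listed peak has no summit of that list in its joined windows. The signal there can be below the caller's cutoff at the depth of that library, or the summit can lie in a neighbouring site. Neither is evidence that the protein was absent.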
